A study of Mus musculus with 18 samples.

Results

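The cytosolic ribosomal protein genes of mouse embryonic stem cells (mESCs) were followed in wild-type (WT) and Nsd1 knockout (KO) cells while the cells left the stem cell state. Members were taken by symbol, as Rpl or Rps followed by a number and an optional suffix of letters, together with Rplp0, Rplp1, Rplp2 and Rpsa, and without the pseudogenes marked -ps and the Rps6k kinases. This gave 86 of the 20703 genes in the table, 53 named for the large subunit and 33 for the small subunit. By the GENCODE annotation, 82 of them are protein coding, 2 are transcribed processed pseudogenes (Rpl37rt and Rps4l) and 2 are processed pseudogenes (Rpl6l and Rpl32l).

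Each cytosolic ribosome is built from a large and a small subunit, in which the ribosomal proteins are arranged on ribosomal RNA. Most of these proteins are needed in equal number, and their mRNAs are abundant and are commonly regulated together, in part through a run of pyrimidines at the very start of the mRNA that couples their translation to growth signals. A few have a paralog with its own expression pattern, such as the germ cell-associated Rpl10l and Rpl39l and the muscle-associated Rpl3l. Some paralogs, Rpl10l among them, are intronless copies.

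The RNA-seq series compared E14 mESCs with and without Nsd1, an H3K36 methyltransferase, at day 0, day 2 and day 4 after the leukemia inhibitory factor (LIF) and the mouse embryonic fibroblast (MEF) feeder layer were withdrawn from monolayer cultures. At each day there were 2 WT libraries, 2 of the line KO-1 and 2 of the line KO-2, so that 2 WT and 4 KO libraries were compared and both knockout lines were set against the same WT libraries. KO-1 and KO-2 are each a single-cell clone, made homozygous for a deletion of exon 5 of Nsd1 by a pair of guides in E14 cells that carried a 3×Flag knock-in at Nsd1. The labels call the controls WT and do not say whether they carried that knock-in. The study's methods give culture with LIF, on MEFs or on gelatin, and do not say which was used for each group. The libraries were poly(A) selected, and the number of counts assigned to genes ran from 9309874 to 23921193 (median 15721347.5). The shallowest libraries were both WT libraries of day 2, at 9309874 and 9356867 counts, against 15278867, 14900945, 19445827 and 14595828 for KO at that day.

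The targeted gene was lower in each KO library. Nsd1 stood at 3374 and 3660 normalized counts in the WT libraries of day 0, and 837, 711, 689 and 635 in the KO libraries. The KO and WT ranges did not overlap at any day, and the log2 differences were -1.69, -1.27 and -1.06 (SE 0.11 each) at day 0, day 2 and day 4 (adjusted p = 8.77e-10, 1.82e-08 and 1.47e-07). The transcript was reduced, not absent. Normalized counts here are counts divided by the size factor of the library, and log2 differences are between the deposited log2 values, whose transformation (variance stabilizing transformation, VST) shrinks the differences of genes with few counts.

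Markers fixed for 2 cell types were measured beside the ribosomal protein genes. All 12 mESC markers were above 0 in each library, the most abundant being Tdgf1 at day 0 and Lin28a at day 2 and day 4, and their summed normalized counts were 106201 and 108921 in WT and 107059, 108850, 105624 and 106494 in KO at day 0. At day 4 these sums were 31764 and 31496 in WT and 52091, 49456, 48054 and 50204 in KO. At day 2 they were 47560 and 46608 in WT and 58628, 58232, 56212 and 57544 in KO. The sums were thus higher in KO at both days, and of the 12 genes 6 were called higher and 1, Pou5f1 (-0.69), lower at day 2, beside 4.01% and 2.37% of all genes, and 10 higher and 1, Tdgf1 (-1.07), lower at day 4, beside 3.67% and 3.91%. Pou5f1 had -0.54 at day 4 (adjusted p = 2.68e-05), below the threshold on size used throughout. Of 18 MEF markers, 16 were in the table and 12 of these were above 0 in each library, while Dcn was at 0 in 3 libraries, Lum in 9, Postn in 3 and Twist2 in 6. Their sums were 2697 and 2467 in WT and 2200, 2205, 2595 and 2431 in KO at day 2, and 13562 and 12899 in WT and 3103, 3216, 4150 and 3964 in KO at day 4. Col5a1, a fibrillar collagen gene, made up 8992 and 8556 of the WT sums at day 4, while Col1a1 was the most abundant MEF marker in each library of day 0 and Mmp2 in each library of day 2. At day 0 the MEF marker sums were 5094 and 4965 in WT and 7286, 7050, 7932 and 8160 in KO. Of the 16 MEF markers, 3 were called higher and 1, Pdgfrb (-0.67), lower at day 0, beside 1.73% and 0.879% of all genes. At day 2, 0 were higher and 1, Thy1 (-0.68), lower, beside 4.01% and 2.37%. At day 4, 1, Mmp2 (0.68), was higher and 4 were lower, beside 3.67% and 3.91%. The part of these markers in the results that follow was not tested, and in bulk samples fewer cells of a type and less RNA per cell cannot be told apart.

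The ribosomal protein genes took a large part of all counts, and this part peaked at day 2 in WT. In WT the members held 4.59% and 4.71% of the counts at day 0, 6.77% and 5.81% at day 2, and 4.22% in both libraries at day 4. In KO-1 they held 2.99% and 3.87%, then 4.79% and 4.09%, then 3.05% and 3.39%. In KO-2 they held 4.27% and 4.32%, then 3.66% and 3.39%, then 4.43% and 4.46%. Each KO library was thus below both WT libraries at day 0 and at day 2, and at day 4 KO-1 lay below and KO-2 above WT. The shares moved by at most 0.0094 percentage points when the counts of each library were thinned to the depth of the shallowest one. Such thinning draws from all genes alike and keeps the expected share. It therefore cannot test the part of depth or of the removal of duplicates, which came before these counts. The share of mitochondrially encoded transcripts went the other way at day 2, with 1.18% and 1.21% in WT and 1.60%, 1.77%, 1.46% and 1.59% in KO. At day 0 it was 1.71% and 1.95% in WT and 1.61%, 1.48%, 1.58% and 1.55% in KO, lower in KO like the members, and at day 4 it was 0.938% and 0.813% in WT and 1.33%, 1.03%, 1.49% and 1.75% in KO, higher in both lines. Its part in the result was not tested.

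**Figure D1:**
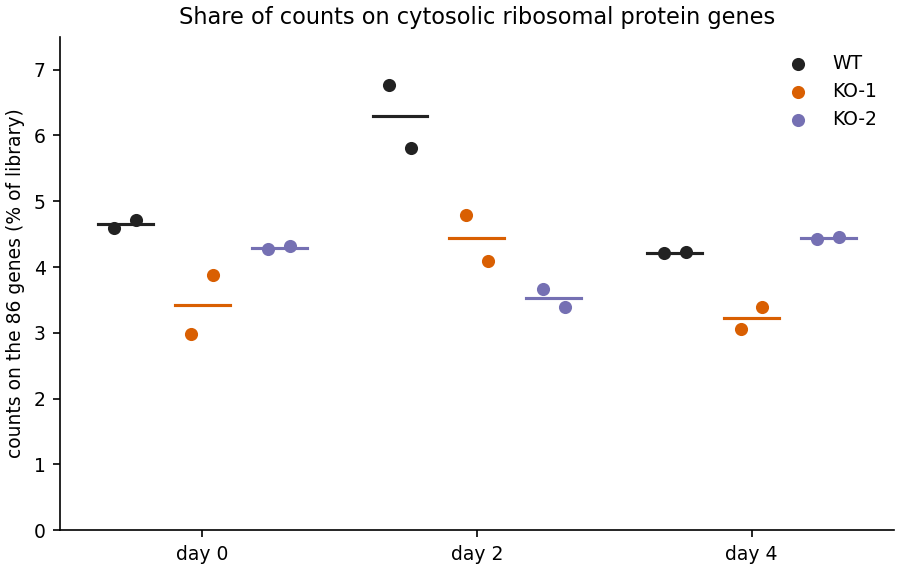
Percent of all counts of a library (vertical axis) that fell on the 86 ribosomal protein genes, by line and day (horizontal axis), with 1 point per library and a line at the mean of each pair. The WT libraries of day 2 stand at 6.77% and 5.81%, above the 4 KO libraries of that day, which lie between 3.39% and 4.79%.

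Nearly all members shared this pattern. Each member was correlated over the 18 libraries with the median of the other members (Pearson's r, a description over libraries that share groups and days). This correlation had a median of 0.955 over the members, and it was over 0.9 for 68 of the 86 members. It was under 0.5 for 7 members, of which 4 were below 0: Rpl3l (-0.43), Rpl10l (-0.30), Rpl24 (-0.30) and Rpl36al (-0.12). The other 3 were Rpl39l (0.10), Rps4l (0.34) and Rpl32l (0.38). Rpl3l, Rpl10l, Rpl39l and Rps4l are paralogs of Rpl3, Rpl10, Rpl39 and Rps4x, while Rpl24, Rpl36al and Rpl32l had few counts in this table, with medians of 8, 9 and 6 counts per library.

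**Figure D2:**
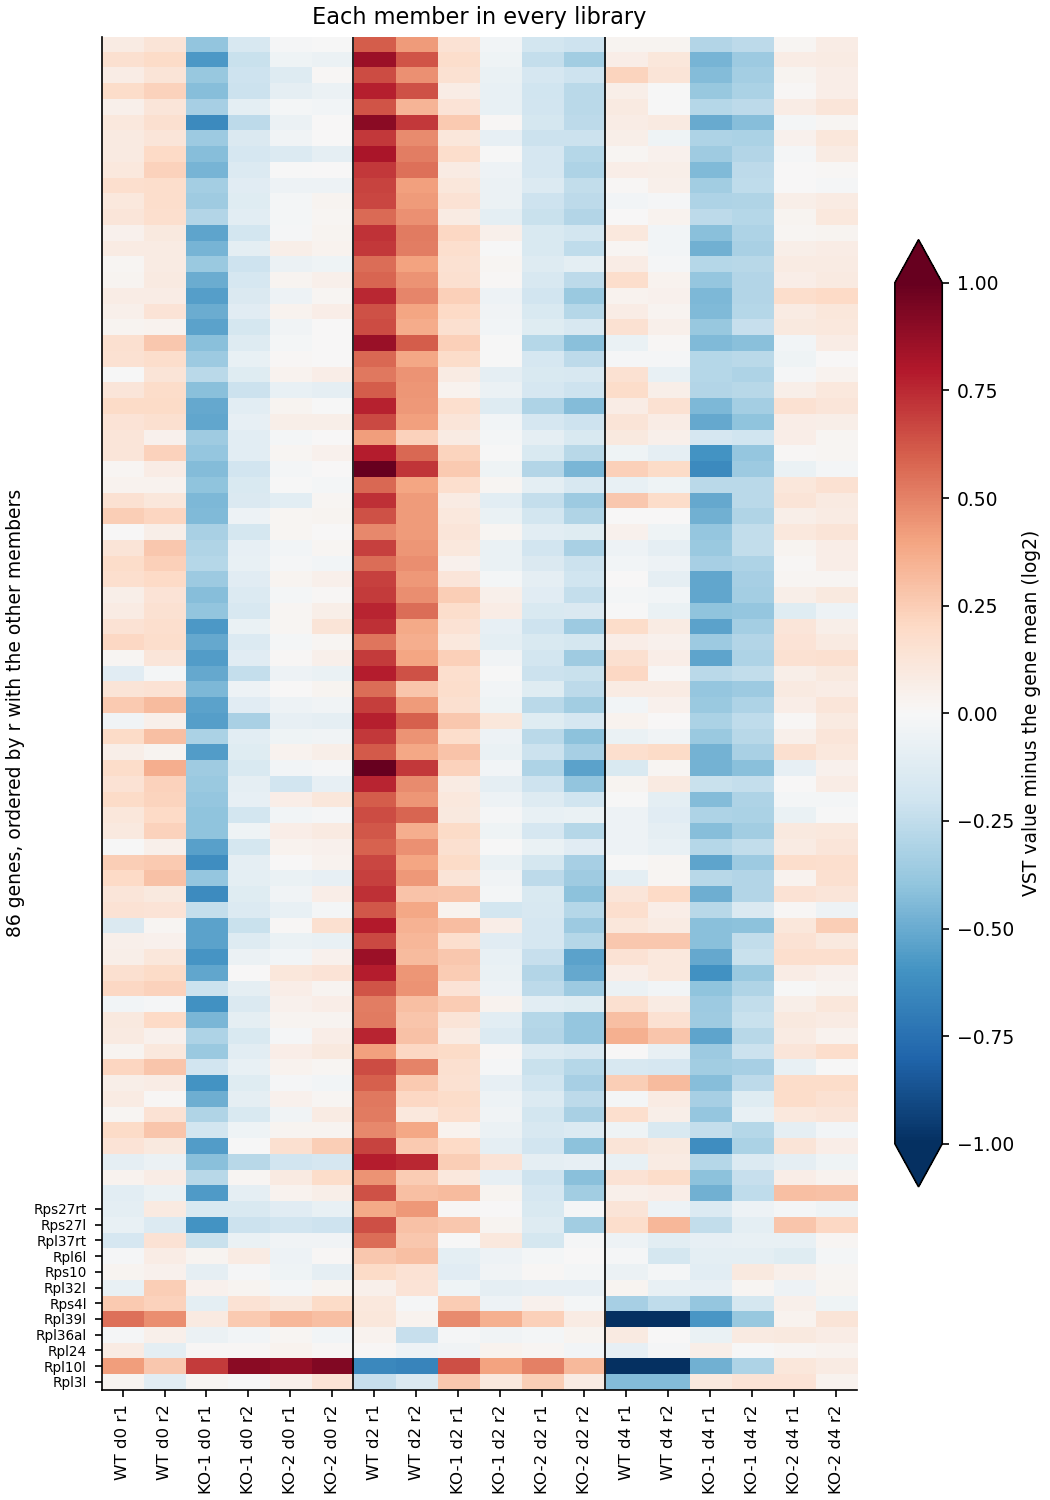
Deviation of each member (rows) from its own mean over the 18 libraries (columns, grouped by day and line), in log2 units of the deposited values, from lower (blue) to higher (red), ordered by their correlation with the other members. Most rows are high in the WT libraries of day 2, and the rows of Rpl10l and Rpl39l are instead high at day 0 and lowest in the WT libraries of day 4.

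The members spanned a wide range of levels, which is given per kilobase of transcript so that genes can be compared. In WT at day 0 the median member had 7531 normalized counts per kilobase. Rps2, a protein of the mRNA entry side of the small subunit, was highest at 28347, followed by Rplp1 of the P stalk (23968), Rpl4 (22598) and Rpl7a (21792). Rpl3l (18.5), Rpl24 (9.73) and Rpl36al (8.03) were lowest. In the GENCODE gene models, 47.0% of the exonic bases of Rpl24 and 24.5% of those of Rpl36al lie in a second gene model (Gm28037 and Gm49383), as do 28.7% of those of Rps10 (RPS10-NUDT3), which had a median of 49 counts. None of these second models was in the table by symbol, and whether reads shared by 2 models were dropped was not tested, so the levels of Rpl24, Rpl36al and Rps10 are uncertain.

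At day 0 most log2 differences of members were below 0, but no member was called. The log2 difference was below 0 for 83 of the 86 members, with a median of -0.25 beside -0.0032 over all genes, and for 61 members each KO library was below both WT libraries (24.3% of all genes). A gene was called when its adjusted p was under 0.01 and its log2 difference was over 0.58 in size (limma across all genes, Benjamini-Hochberg adjustment). At this rule 0 members were called lower, beside 0.879% of all genes, and 0 higher, beside 1.73%. At an unadjusted p under 0.05, 30 members were lower and 1 was higher, beside 19.7% and 19.6% of all genes. With limma-voom on the recovered counts 0 were called lower and 1, Rpl10l, higher, beside 6.42% and 6.35%. At an adjusted p under 0.05 alone, 11 members were lower, beside 14.4% of all genes, and 1 was higher, beside 15.3%, so that the share of members passing in either direction was not above that of all genes. The median was -0.14 without KO-1 day 0 replicate 1, and it was -0.39 in KO-1 and -0.10 in KO-2. In KO-1 alone 3 members, Rpl9, Rpl14 and Rpl26, were called lower, beside 0.966% of all genes, and in KO-2 alone 0, beside 0.971%.

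The lowest log2 difference of a member at day 0 was -0.48, for Rpl26, which lies near the exit of the peptide tunnel. Its VST value in 1 KO-1 library (12.04) stood apart from the other KO libraries. Among the other genes lower at an adjusted p under 0.05 were Rpl11, Rpl15, Rpl29, Rpl34, Rpl35a, Rpl4, Rpl6, Rpl7a and Rps15a. Rpl11 is known as a member of the 5S ribonucleoprotein particle, and Rpl4 is a large protein with an extension that reaches into the peptide tunnel. None of the 12 genes that passed at day 0 kept an adjusted p under 0.05 each time when 1 library was left out in turn. Rpl24 and Rpl3l were, beside Rpl10l, the only members with a difference above 0 at day 0, and neither passed the test. In pooled normalized counts the ratio of KO to WT for Rpl24 was 0.87, so its direction differed between the scales.

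At day 2 most members were lower in KO. The median log2 difference over the members was -0.61 (quartiles -0.68 and -0.51), beside -0.0159 over all genes, and 80 of the 86 members were below 0. Of the members, 48 were called lower, beside 2.37% of all genes, and 1 was called higher, beside 4.01%. At an adjusted p under 0.05 alone, 79 members were lower and 2 higher, beside 24.2% and 21.8% of all genes. In 78 members each KO library lay below both WT libraries (31.4% of all genes), and in 2 each lay above (26.2%). The subunits had like medians, with a median of -0.61 over the 53 large subunit members (31 lower, 1 higher) and of -0.61 over the 33 small subunit members (17 lower, 0 higher).

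The number called at day 2 rested on 1 WT library. It was 13 in all (12 lower, 1 higher) without WT day 2 replicate 1, in which the members held 6.77% of the counts, and the median over the members was then -0.48. It was 23 (22 lower, 1 higher) after quantile normalization and 33 (32 lower, 1 higher) with each day fitted alone. No shares of all genes are given for these 2 settings or without that library, so the counts only show how the calls moved. With KO-1 alone the number was 15 (14 lower, beside 1.87% of all genes, and 1 higher, beside 3.63%). With KO-2 alone it was 69 (68 lower, beside 2.89%, and 1 higher, beside 4.54%). When 1 library was left out in turn, 13 of the 49 calls were kept each time, those of Rps14, Rpl41, Rplp0, Rpl3 and Rpl10l among them, as were 49 of the 81 passes at an adjusted p under 0.05.

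On the log2 scale of the table the largest falls were in Rps14, Rpl41, Rps7 and Rpl17. In pooled normalized counts, Rps27rt and Rpl6l, which had few counts, were lower by larger folds (2.68 and 2.38) than Rpl41 (2.11) and Rps14 (2.08), and Rps29 (1.98), Rps10 (1.93) and Rpl38 (1.91) by larger folds than Rps7 (1.88). Rps14, a protein of the platform of the small subunit, went from 19081 and 15362 normalized counts in the WT libraries of day 2 to 10852, 8963, 7297 and 6122 in KO, and its log2 difference was -1.02 (SE 0.17, adjusted p = 4.82e-05). Rpl41, the smallest protein of the ribosome, had 13440 and 10553 in WT and 7559, 5980, 4952 and 4341 in KO, a log2 difference of -1.01 (SE 0.17, adjusted p = 7.45e-05). In both genes the highest KO library was below the lowest WT library, and the difference of Rpl41 ran from -1.18 to -0.85 when 1 library was left out in turn. Rps7, which also belongs to the small subunit, had 13245 and 11216 in WT and 8013, 6806, 5858 and 5365 in KO (log2 difference -0.86, SE 0.16, adjusted p = 0.000202). Rpl17, near the tunnel exit, fell by 0.85 on the log2 scale (SE 0.16, adjusted p = 0.000244), and Rpl9 at the base of the P stalk by 0.84 (SE 0.17). Within each of these genes KO-2 was lower than KO-1 at day 2.

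The P stalk recruits the translation factors that hydrolyse GTP, and its 3 genes were lower in KO at an adjusted p under 0.05, with 2 of them called. Rplp0, the protein that anchors the stalk, went from 37871 and 34136 normalized counts in the WT libraries of day 2 to 24471, 21693, 18631 and 18531 in KO, a log2 difference of -0.78 (SE 0.13, adjusted p = 7.77e-05). Rplp1 fell by 0.63 on the log2 scale (adjusted p = 0.00845), while Rplp2, its partner in the stalk, had a difference of -0.59 with an adjusted p of 0.0225 and was not called. Rpsa, a small subunit protein also known as a laminin receptor precursor, had -0.58 (adjusted p = 0.00317) and missed the threshold on size. Rpl13, Rps21 and Rps10 are named in the study. Rpl13 had a log2 difference of -0.64 (SE 0.15, adjusted p = 0.00121) and was called, and Rps21 had -0.61 (adjusted p = 0.0168) and was not. Rps10 had -0.21 (adjusted p = 0.00238) and was below the threshold on size, with 91.3 and 81.0 normalized counts in WT and 32.2, 44.7, 52.3 and 47.4 in KO, which do not overlap.

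Rpl4 had the highest mean value of all members and shows how narrow the spread can be. Its normalized counts were 41376 and 38656 in WT at day 2 and 30261, 28299, 26382 and 26762 in KO. The ranges were well apart, and the log2 difference of -0.51 (SE 0.09, adjusted p = 5.47e-05) passed the test on p and not on size. Without Rpl10l, Rpl39l and Rpl3l, the standard deviation of the log2 difference over the other 83 members was 0.0992, 0.19 and 0.117 for the 3 days in turn, beside a median standard error of a single member of 0.137. With all 86 members it was 0.13, 0.29 and 0.29.

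**Figure D3:**
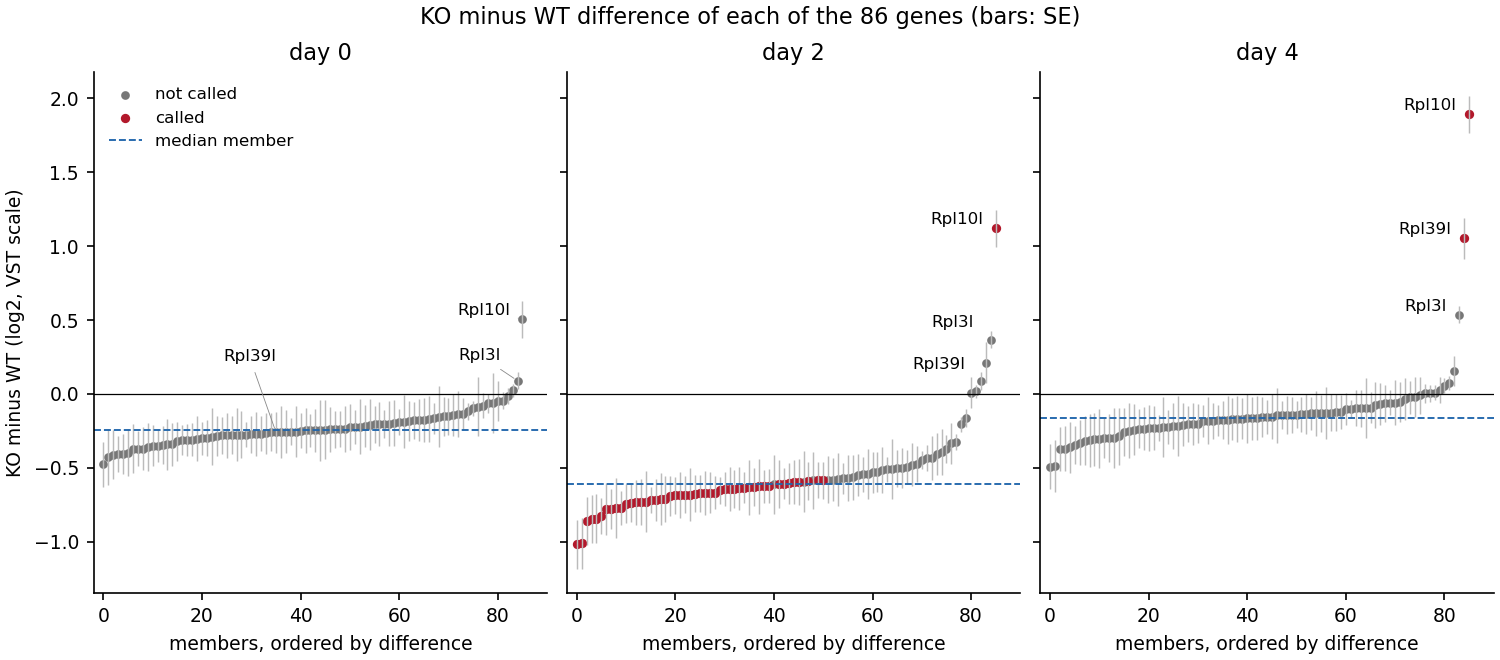
Log2 difference between KO and WT of each of the 86 members (points, with bars of 1 SE), ordered from lowest to highest within each day, with called members in red, the others in gray and the median member as a dashed line. At day 2 the curve is shifted below 0 as a whole, and at day 4 Rpl10l and Rpl39l stand apart at the upper end with 1.89 and 1.05.

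When each library was expressed relative to its median member, no member was called lower at day 0, day 2 or day 4, beside 0.237%, 0.126% and 2.25% of all genes. At day 0, 1 member, Rpl10l, was called higher, beside 4.91% of all genes. At day 2, 6 members were called higher, but so were 64.7% of all genes, because the median member itself was lower in KO. At day 4, 3 members were higher relative to the median member, beside 6.64% of all genes. The 6 were Rpl10l, Rpl39l, Rpl3l, Rps4l, Rpl24 and Rpl36al, and the 3 were Rpl10l, Rpl39l and Rpl3l. Rpl24 and Rpl36al had few counts, and the scale compresses their differences toward 0, so that a lower median member alone places them higher. At an adjusted p under 0.05 alone, 2 members, Rpl41 and Rps14, were lower than the median member at day 2, beside 0.319% of all genes.

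The 6 members with a log2 difference above 0 at day 2 were Rpl10l, Rpl39l, Rpl3l, Rps4l, Rpl24 and Rpl36al. All but Rpl24 are paralogs of another member, and Rpl3l, Rpl24 and Rpl36al had few counts. Rps20, a small subunit protein, had 10805 and 9316 normalized counts in WT and 9210, 8035, 7197 and 7049 in KO (log2 difference -0.33, adjusted p = 0.058), and together with Rpl24, Rpl36al, Rpl39l and Rps4l it was 1 of the 5 members with an adjusted p over 0.05. Rps12, in the beak of the small subunit, had 12475 and 9735 in WT and 9893, 7954, 6891 and 5982 in KO, so that 1 KO-1 library lay within the WT range.

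Rpl10l, an intronless copy of Rpl10 that takes its place in male germ cells, had the highest log2 difference of all members at each day. At day 0 it had 1656 and 1436 normalized counts in WT and 2125, 2534, 2497 and 2592 in KO. At day 2 it had 525 and 517 in WT and 2033, 1626, 1788 and 1508 in KO. At day 4 it had 20.1 and 13.9 in WT and 647, 789, 1233 and 1192 in KO. Thus in WT the transcript was 96.7-fold lower at day 4 than at day 0, and at each day the lowest KO library exceeded the highest WT library. The ratio of KO to WT was 1.57, 3.35 and 60.2 in normalized counts pooled over libraries. On the compressed log2 scale of the table the differences were 0.51 (SE 0.12, adjusted p = 0.00398), 1.12 (adjusted p = 3.89e-07) and 1.89 (adjusted p = 1.01e-10), and the gene was called higher at day 2 and day 4. The difference at day 0 passed on p and not on size, and its adjusted p was 0.0813 without WT day 0 replicate 2.

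Its partner Rpl10, which completes the large subunit late in its assembly, moved with the other members. Its normalized counts were 15878 and 12945 in WT at day 2 and 11990, 10354, 9643 and 8720 in KO, with log2 differences of -0.25, -0.48 (adjusted p = 0.0113) and -0.23 at day 0, day 2 and day 4, none of them called. Per kilobase, Rpl10l reached 10.2% and 11.9% of Rpl10 in WT at day 0 and 19.7% to 23.4% in KO. At day 4 it was at 0.104% and 0.150% in WT and at 6.83% to 9.16% in KO. At each day the KO and WT percentages were apart, and even in KO the paralog stayed well below Rpl10.

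Rpl39l, the testis-associated copy of Rpl39, which lines the exit tunnel, differed in counts at day 4. At day 0 it had 840 and 765 normalized counts in WT and 482, 601, 657 and 634 in KO, with the 4 KO libraries below WT. At day 2 it had 500 and 447 in WT and 770, 673, 587 and 478 in KO, which overlapped. At day 4 it had 14.1 and 17.7 in WT and 160, 236, 447 and 509 in KO, all above WT. The log2 differences were -0.26 (SE 0.14, adjusted p = 0.175), 0.21 (adjusted p = 0.224) and 1.05 (adjusted p = 2.75e-06), so that only the last was called. In normalized counts the ratio of KO to WT at day 4 was 21.1, and in WT the level was 49.9-fold lower at day 4 than at day 0. Rpl39 itself had log2 differences of -0.05, -0.50 (adjusted p = 0.00527) and -0.30. Per kilobase Rpl39l was at 31.2% and 35.5% of Rpl39 in WT at day 0 and at 23.3% to 27.3% in KO, below WT. At day 2 it was at 14.6% and 15.5% in WT and at 30.4% to 31.6% in KO, and at day 4 at 0.538% and 0.653% in WT and at 10.4% to 21.4% in KO, with KO above WT and no overlap at either day.

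Rpl3l, which replaces Rpl3 in heart and skeletal muscle, was detected at a low level. It had 33.5 and 17.3 normalized counts in WT and 32.1, 29.5, 37.3 and 52.4 in KO at day 0, which overlapped. At day 2 it had 6.52 and 13.0 in WT and 80.0, 46.8, 74.9 and 42.1 in KO, and at day 4 it had 0 in both WT libraries and 45.1, 52.6, 51.8 and 34.7 in KO. KO was above WT in each library of day 2 and day 4, with a ratio of 6.39 at day 2, and it was at least 40.4-fold higher at day 4, taken against 3 counts over both WT libraries together, a bound that covers counting error only. The log2 differences of 0.37 (adjusted p = 3.44e-05) and 0.54 (adjusted p = 2.11e-07) passed on p and, on the compressed scale, not on size. Rpl3, by contrast, went from 24516 and 21941 normalized counts in the WT libraries of day 2 to 17223, 15223, 13054 and 12429 in KO, and fell by 0.67 on the log2 scale (adjusted p = 7.37e-05). At day 4 the difference of Rpl3 was -0.02. Per kilobase Rpl3l was at 0.0906% and 0.184% of Rpl3 in WT and at 0.1995% to 0.33% in KO at day 0, without overlap. At day 2 Rpl3l was at 0.0261% and 0.0581% in WT and at 0.302% to 0.564% in KO. It was at 0% in WT and at 0.223% to 0.428% in KO at day 4.

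**Figure D4:**
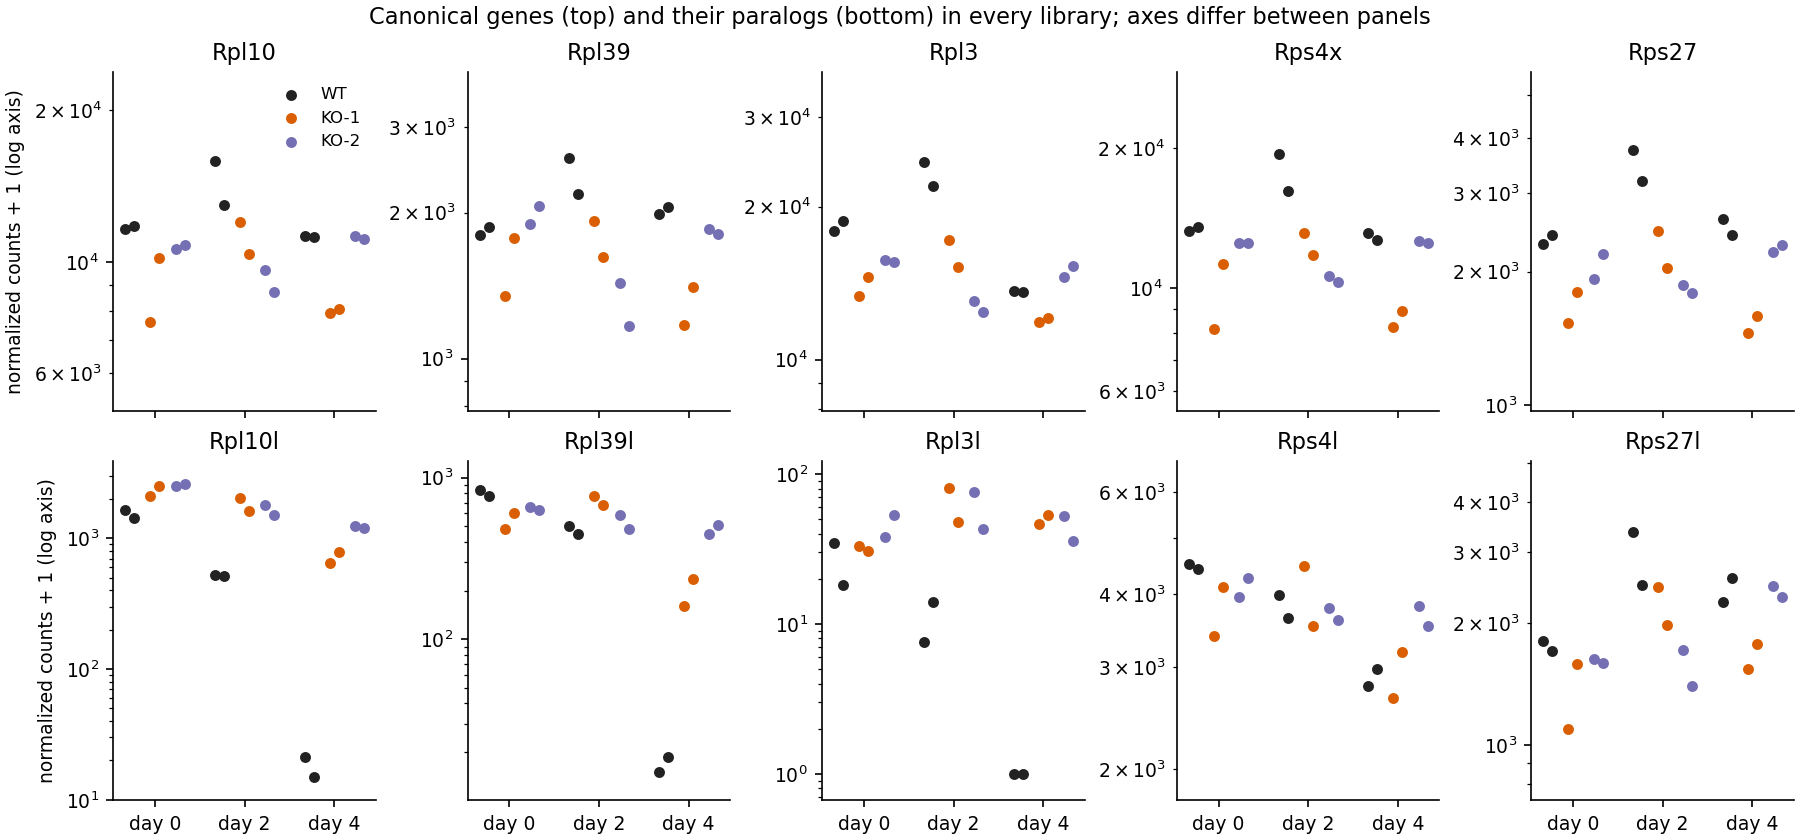
Normalized counts plus 1 (log axis, with its own range in each panel) of 5 genes (top) and their paralogs (bottom) in each of the 18 libraries, by day and line. In WT at day 4 Rpl10l is at 20.1 and 13.9, Rpl39l at 14.1 and 17.7 and Rpl3l at 0, each below all 4 KO libraries.

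Rps4l, a retrocopy related to the X-linked Rps4x, is a further paralog whose ratio to its partner differed at day 2. At day 2 its normalized counts were 3986 and 3634 in WT and 4476, 3525, 3789 and 3606 in KO, which overlapped, with a log2 difference of 0.01 (adjusted p = 0.958). Rps4x had 19386 and 16140 in WT and 13096, 11751, 10584 and 10290 in KO, and fell by 0.61 (adjusted p = 0.00392). Per kilobase Rps4l was at 21.3% and 23.3% of Rps4x in WT and at 31.0% to 37.0% in KO at day 2, and at 21.9% and 24.3% against 29.2% to 37.0% at day 4, with no overlap at either day. At day 0 the percentages overlapped.

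The ratio of Rps27l to Rps27 overlapped between WT and KO at each day. Rps27l, a paralog known to be induced by Trp53, had normalized counts of 3358 and 2493 in WT at day 2 and 2455, 1983, 1716 and 1400 in KO, a log2 difference of -0.51 (adjusted p = 0.0107). Rps27 had 3749 and 3195 in WT and 2473, 2038, 1865 and 1791 in KO, and fell by 0.63 (adjusted p = 0.000452). Rps27 was called and Rps27l was not, and the adjusted p of Rps27l was 0.205 without WT day 2 replicate 1 (log2 difference -0.33). Rps27rt, a retrocopy of Rps27, had a log2 difference of -0.45 (adjusted p = 4.94e-06) at day 2, but 90.3% of its 75-base windows also occur in other genes of the annotation. Of genes outside the naming rule, Rpl22l1 had differences of -0.19, -0.35 (adjusted p = 0.0119) and -0.33 (adjusted p = 0.0195), and Rpl7l1 of -0.01, -0.22 (adjusted p = 0.00302) and -0.35 (adjusted p = 3.70e-05). The partners of these genes, Rpl22 and Rpl7, had -0.43 and -0.65 at day 2. Per kilobase Rpl7l1 was at 9.78% and 9.89% of Rpl7 in WT and at 12% to 14.6% in KO at day 2, without overlap, and at 15.1% and 15.6% in WT and 10.9% to 15.0% in KO at day 4, with KO then below. At day 0 Rpl7l1 was at 10.4% and 10.9% of Rpl7 in WT and at 11.6% to 14.4% in KO, with KO above. By the same measure Rpl22l1 was at 63.3% and 64.2% of Rpl22 in WT and at 42.6% to 47.4% in KO at day 4, without overlap. Its percentages were also apart at day 0, at 64.4% and 64.9% in WT and 58.1% to 61.6% in KO. They overlapped at day 2. For Rpl36al, the copy of Rpl36a, the few counts allow no reliable ratio.

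Reads of near-identical copies can be split or lost, so the windows of 75 bases that a transcript shares with another annotated gene were counted. They made up 71.1% of the windows of Rpl10, 64.0% of Rpl3, 52.9% of Rps4x, 42.4% of Rps27 and 7.62% of Rpl39. For the paralogs they were 0.316% in Rpl10l, 6.67% in Rps4l, 8.07% in Rps27l and 0% in Rpl39l and Rpl3l. Rpl22l1 shared 42.3%. Rpl10l, Rpl39l and Rpl3l were thus almost unique in sequence, while 20 members, the partners Rpl10, Rpl3 and Rps4x among them, shared over 50% and their levels are less certain.

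The start sites of some genes of the pairs, and of Rpl41 and Rps7 from the largest falls, are printed. The run of pyrimidines that marks many ribosomal protein mRNAs lies at the start of the mRNA. Rpl3, Rps4l, Rps14 and Rpl17 had no promoter sequence here. Each line is the RefSeq sequence on the gene's strand (GRCm38.p6), 15 bases before and 15 bases from the annotated start, with its longest run of C and T in capitals.
Rpl10, chrX:74270801-74270830, plus strand: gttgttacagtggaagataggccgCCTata
Rpl10l, chr12:66284387-66284416, minus strand: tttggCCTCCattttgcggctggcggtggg
Rpl39, chrX:37085208-37085237, minus strand: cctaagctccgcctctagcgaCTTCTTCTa
Rpl39l, chr16:10170213-10170242, plus strand: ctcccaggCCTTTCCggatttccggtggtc
Rpl3l, chr17:24727811-24727840, plus strand: gagtgttctagctctgtcatttgaCCTCTg
Rps4x, chrX:102189377-102189406, minus strand: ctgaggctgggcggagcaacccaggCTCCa
Rps27, chr3:90213634-90213663, minus strand: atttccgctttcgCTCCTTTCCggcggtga
Rps27l, chr9:66946071-66946100, plus strand: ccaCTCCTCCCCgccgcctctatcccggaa
Rpl41, chr10:128549154-128549183, minus strand: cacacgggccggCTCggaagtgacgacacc
Rps7, chr12:28635939-28635968, minus strand: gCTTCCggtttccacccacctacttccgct

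The longest run was 9 bases in Rps27 and Rps27l and 8 in Rpl39, against 7 in Rpl39l and 5 in Rpl10l and Rpl3l. It was 3 in Rpl10 and Rpl41, 4 in Rps4x and 5 in Rps7. The runs of Rps27l, Rpl39l, Rpl10l, Rpl41 and Rps7 lie before the annotated start and thus outside the annotated mRNA. Of the 64 members with a promoter in the table, 25 (39.1%) held a run of at least 8 C or T in this window of 30 bases, beside 11.9% of 27025 promoters. The letters CCGGAA, the core of the motif of ETS factors, were sought on either strand in 300 bases, 250 before and 50 after the annotated start. They were found in 31 members (48.4%), beside 15.2% of all promoters. Both are descriptions of letters in a window, in annotated starts that may differ from the start used in these cells.

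By day 4 the difference over both lines together was smaller. The median log2 difference over the members was -0.16, with 76 of the 86 below 0, beside 0 over all genes. These values differed between the lines, with 80 members below 0 and a median of -0.36 in KO-1 and 34 below 0 and a median of 0.04 in KO-2, and the pooled median was -0.08 without KO-1 day 4 replicate 1. No member was called lower, beside 3.91% of all genes, and 2, Rpl10l and Rpl39l, were called higher, beside 3.67%. In KO-1 alone 5 members, Rpl36a, Rpl37a, Rpl38, Rpl41 and Rps29, were called lower, beside 4.01% of all genes, and in KO-2 alone 0, beside 4.08%. Here 9 members were lower and 3 higher at an unadjusted p under 0.05, beside 22.9% and 21.3% of all genes, and limma-voom called 0 lower and 3 higher, beside 12.5% and 10.9%. At an adjusted p under 0.05 alone, 4 members were lower, beside 19.2% of all genes, and 3 higher, beside 18%. The lower ones were Rpl41 (-0.49, adjusted p = 0.0314), Rps29 (-0.49, adjusted p = 0.0148), Rps27 (-0.35, adjusted p = 0.0397) and Rpl29 (-0.23), and the higher ones were Rpl10l, Rpl39l and Rpl3l. When 1 library was left out in turn, 3 of these 7, the higher ones, kept an adjusted p under 0.05 each time, and that of Rpl41 reached 0.165. The normalized counts of Rpl41 were 7412 and 7166 in WT at day 4 and 3757, 4670, 5887 and 6100 in KO.

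The difference between KO and WT changed with the day. From day 2 to day 4 the median change in the difference was 0.44, and 6 members were called, beside 2.15% of all genes, all toward higher values (0 lower, beside 4.27%): Rps14 (0.85), Rpl39l (0.84), Rpl10l (0.77), Rpl11 (0.64), Rpl3 (0.64) and Rpl34 (0.61). For KO-1 alone it was 0.12, with 0 members called, beside 4.14% of all genes lower and 2.48% higher, and for KO-2 alone 0.77, with 72 called higher, beside 3.06%. None was called without WT day 2 replicate 1 or WT day 4 replicate 1, 1 was called without WT day 4 replicate 2, and 16 were called without either KO-1 day 2 replicate 1 or KO-1 day 4 replicate 1. From day 0 to day 2 the median change was -0.35 and 0 members were called, beside 1.11% of all genes lower and 2.08% higher, with 26 lower and 3 higher at an unadjusted p under 0.05, beside 17.3% and 16.1%, and 0 by limma-voom, beside 3.11% and 3.95%. For KO-1 alone this median was -0.079, with 2, Rpl10l and Rpl39l, called higher, beside 1.87% of all genes, and 0 lower, beside 1.18%, and for KO-2 alone it was -0.61, with 52 called lower, beside 1.87%, and 0 higher, beside 2.92%. At an adjusted p under 0.05 alone, 8 were lower and 2 higher for the first interval (11% and 10.8% of all genes), and 29 were higher for the second (14.1%, with 0 lower beside 15.0%).

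Along time the WT medians lay further from 0 than the KO medians, which pool 2 lines whose shares of counts went opposite ways, up and then down in KO-1 and down and then up in KO-2. From day 0 to day 2 the median log2 difference over the members was 0.41 in WT, and 5 members were called higher, beside 2.66% of all genes: Rpl13a (0.84), Rpl41 (0.83), Rplp0 (0.77), Rps3 (0.68) and Rpl9 (0.67). Without WT day 0 replicate 1, or without WT day 2 replicate 1, 3 members were called in all. Rpl10l was called lower (-0.996), beside 4.02% of all genes. By an adjusted p under 0.05 alone, 44 members were higher and 2 lower, beside 20.5% and 20.1% of all genes. From day 2 to day 4 the WT median was -0.49, with 25 members called lower, beside 3.07% of all genes, led by Rpl10l (-1.39), Rpl39l (-1.33) and Rps14 (-0.92), and the number was 5 without WT day 2 replicate 1, 9 without WT day 4 replicate 1 and 8 without WT day 4 replicate 2. None was called higher, beside 5.69%, and at an adjusted p under 0.05 alone 56 were lower and 0 higher, beside 21.8% and 20.5%. In KO the median was 0.06 from day 0 to day 2, with 0 members called, beside 1.77% of all genes lower and 1.43% higher (1 lower and 3 higher at an unadjusted p under 0.05, beside 22.9% and 20.6%, and 0 by limma-voom, beside 8.87% and 6.97%). This median was -0.05 without KO-1 day 0 replicate 1. With an adjusted p under 0.05 as the only rule, 1 was lower and 2 higher, beside 18.9% and 16.8%. From day 2 to day 4 the KO median was -0.05 (0.03 without KO-1 day 4 replicate 1), with 1 called lower, Rpl10l (-0.62), beside 0.565% of all genes, and 0 higher, beside 0.923%. Under the adjusted p of 0.05 alone, 2 were lower and 0 higher, beside 11.2% and 12.5%. Whether the change along time differed between WT and KO is the test of the changing difference above, in which 0 members were called for the first interval and 6 for the second.

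The medians of the 2 clones took different courses. The median log2 difference from the shared WT libraries was -0.39, -0.48 and -0.36 in KO-1 at day 0, day 2 and day 4, and -0.10, -0.73 and 0.04 in KO-2. Compared directly, the median of KO-2 minus KO-1 over the members was 0.27 on day 0, -0.28 on day 2 and 0.39 on day 4. At day 0, 0 members were called, beside 0.0290% of all genes lower and 0% higher, and 2 were higher at an adjusted p under 0.05 (0.382% of all genes lower, 0.169% higher). At an unadjusted p under 0.05, 66 members were higher, beside 7.03% of all genes, and 0 lower, beside 7.73%, and limma-voom called 0, beside 0.140% lower and 0.0193% higher. At day 2, 0 members were called, beside 0.0290% lower and 0.0145% higher, and 8 were lower at an adjusted p under 0.05 (0.459% of all genes lower, 0.507% higher). At an unadjusted p under 0.05, 70 members were lower, beside 5.55% of all genes, and 0 higher, beside 6.71%, and limma-voom called 0, beside 0.140% lower and 0.0918% higher. At day 4, 3 members were called higher in KO-2, beside 0.0966% of all genes, and 0 lower, beside 0.155%. By an adjusted p under 0.05 alone, 74 members were higher in KO-2, beside 5.19% of all genes, and 0 lower, beside 7.59%. The 3 were Rps12 (0.66, adjusted p = 0.00238), Rpl14 (0.62, adjusted p = 0.00296) and Rps21 (0.59, adjusted p = 0.00333). The number was 0 without KO-1 day 4 replicate 1 or KO-2 day 4 replicate 2, 1 without KO-2 day 4 replicate 1 and 17 without KO-1 day 4 replicate 2, and at day 0 it was 13 without KO-1 day 0 replicate 2. Whether the difference between the clones changed with the day was not tested.

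Rps12 showed the split between clones at day 4, with 8102 and 8196 normalized counts in WT, 5421 and 6453 in KO-1, and 9741 and 9675 in KO-2. Rpl14 had 8998 and 9145 in WT, 6073 and 6855 in KO-1, and 10272 and 10187 in KO-2. In both genes KO-1 lay below WT and KO-2 above it, and the pooled KO mean combines values on either side of WT. Rpl10l was above WT in both clones at day 4, and so was Rpl39l. Among the Nsd1 counts, day 4 KO-1 had 1103 and 910 and KO-2 had 575 and 684.

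**Figure D5:**
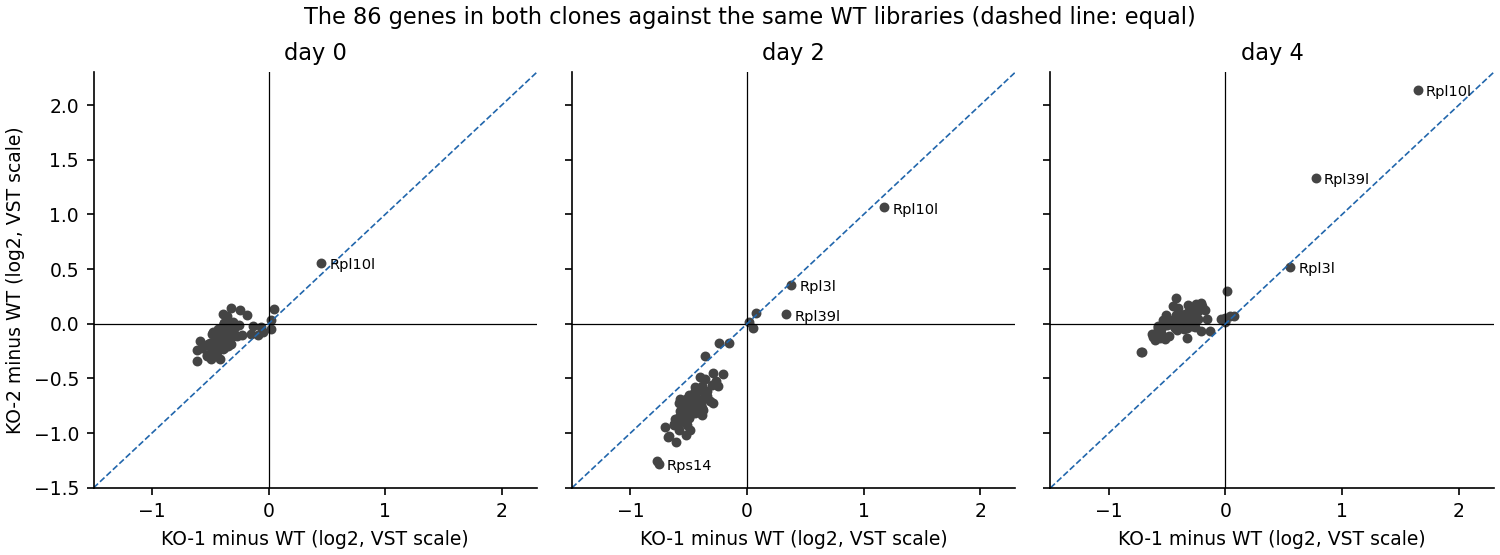
Log2 difference from WT of each member in KO-1 (horizontal axis) and in KO-2 (vertical axis) at day 0, day 2 and day 4, with 1 point per member; both are set against the same 2 WT libraries, and the line marks equal values. The cloud lies above the line at day 0 and day 4 and below it at day 2, with medians of -0.48 in KO-1 and -0.73 in KO-2 at day 2, and Rpl10l and Rpl39l stand apart at day 4.

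Genes that act with the ribosomal proteins were read from lists. Of 40 translation factor genes and genes of mRNAs with the same kind of start, 17 were called lower and 1 higher at day 2, beside 2.37% and 4.01% of all genes, with a median of -0.46. They were led by Eif3m (-0.83), a subunit of the initiation factor that binds the small subunit, Rack1 (-0.76), a scaffold on the small subunit, and Eif5a (-0.75), which helps the ribosome through difficult peptide bonds. The exception was Vim, which encodes an intermediate filament and no translation factor, and which was higher at day 2 (0.85) and lower at day 4 (-1.93). At day 0 Eif4b alone was called (-0.63), beside 0.879% of all genes lower, but 34 of the 40 genes were below 0, with a median of -0.23. On that day 19 were lower and 3 higher at an adjusted p under 0.05 alone, beside 14.4% and 15.3% of all genes. At day 4 Vim alone was called, beside 3.91% lower. Fau, whose product carries a ribosomal protein joined to a ubiquitin-like part, was called lower at day 2 (-0.64, adjusted p = 0.000934).

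Genes of the machinery that makes ribosomes were read in the same way. Of 59 ribosome biogenesis genes, 3 were called lower and 0 higher at day 2 beside 2.37% and 4.01% of all genes, with a median of -0.27: Wdr43 (-0.69) and Utp14a (-0.69), of the small subunit processome, and Nop10 (-0.68), of the pseudouridylation particle. Another count, at an adjusted p under 0.05 alone, gave 37 lower and 3 higher, beside 24.2% and 21.8% of all genes. At day 0 Dkc1, which encodes the pseudouridine synthase of that particle, was the 1 gene of the list called (-0.62, lower, beside 0.879% of all genes), and at day 4 it was Rrp12 (0.58, higher, beside 3.67%). Of 18 RNA polymerase I genes 1, Taf1d (-0.63), was called at day 2, and of 17 ribosomal protein chaperone genes 1, Bccip (-0.70), both lower and beside 2.37% of all genes, with list medians of -0.13 and 0.02. Of 14 snoRNA host genes 0 were called at day 2, also beside 2.37% lower, with a median of -0.18, and 9 were lower at an adjusted p under 0.05, beside 24.2% of all genes. Of the mitochondrial ribosomal protein genes, which serve a separate ribosome, 2 of 81 were called lower at day 2, close to the 2.37% of all genes, and 78 were below 0, beside 53.3% of all genes, with a median of -0.23 and 49 lower and 0 higher at an adjusted p under 0.05, beside 24.2% and 21.8% of all genes. Of the 138 ribosomal protein pseudogenes in the table, 3 were called lower at day 2, also close to that share, with a median of -0.12, 126 were below 0, and 62 were lower and 0 higher at an adjusted p under 0.05, beside the same shares.

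Lists of the Myc network and of Trp53 target genes were read beside the members, and their relation to the members was not tested. Among 11 genes of the Myc network, Mycn was called higher at day 0 (0.85), beside 1.73% of all genes, none was called at day 2, beside 2.37% lower and 4.01% higher, where Myc had -0.43 (adjusted p = 0.00151), and Myc (-0.80) and Mycl (-0.93) were called lower at day 4, beside 3.91%. Of 18 target genes of Trp53, the factor that ribosome defects are known to stabilise, 0 were called at day 0, beside 0.879% of all genes lower and 1.73% higher. At day 2, 4 were called higher, beside 4.01%, and 0 lower, beside 2.37%, namely Trp53inp1 (1.11), Eda2r (0.86), Ei24 (0.75) and the cell cycle inhibitor Cdkn1a (0.60). At day 4, 5 were higher, among them Mdm2 (0.73) and Ccng1 (0.81), and 2 were lower, Perp (-1.42) and Btg2 (-0.58), beside 3.67% and 3.91% of all genes. The list medians were -0.14, 0.38 and 0.40 at day 0, day 2 and day 4, and 10 of the 18 genes were higher and 3 lower at an adjusted p under 0.05 at day 2, beside 21.8% and 24.2% of all genes.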

How the data were processed

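RNA-seq libraries of 3 lines at 3 days, 2 per line and day, were used. Per the labels and the study's methods, the authors trimmed reads (Trim Galore 0.6.7), aligned them to mm39 (STAR 2.7.11a), counted the primary, nonduplicated alignments (featureCounts 2.0.6), removed genes with an average count under 1 and deposited DESeq2 (1.42.0) VST values on the log2 scale. Removing duplicates lowers counts most for short, abundant mRNAs, and the members' median transcript length was 874.5 bases against 2524 over all genes. The annotation, strand setting and handling of multimapping reads are not given in the sources used here. Replicates were labelled as biological replicates, and a supplementary legend of the study calls those of mESCs independent. Whether they came from separate cultures is not stated, so p-values measure the spread between these libraries.

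The transformation was inverted to counts (100% of values checked, those under 3000 counts, came out whole within 0.05) and normalized counts. In each library 72.5% to 77.5% of the counts from 1 to 20 were even, for a reason not found, so small counts and the bound of 3 counts may rest on fewer independent fragments than they appear to. Values were fitted with limma 3.58.1 (R 4.3.3; trended prior, 6 groups of genotype and day, 9 for clones), with p-values adjusted over all 20703 genes. Gene types, lengths, overlaps and shared windows came from GENCODE M21 (GRCm38). Alternatives changed normalization, filter, tool (limma-voom), covariates, thresholds and members, or left out 1 library. Members and lists were chosen with earlier results of these data known. Named members were the paralog pairs, the 4 extremes at each day, members called higher, the P stalk genes and Rpsa, 3 genes the study names, the highest and lowest mean and the 3 largest clone differences at day 4, others being chosen after their values were seen. From each other list, called genes and the 3 largest differences at day 2 were eligible.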

Additional observations from a re-analysis of the deposited data

Results flagged for a closer look

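In groups of 4 KO libraries, 7 values of members stood apart from the other 3 libraries among 117 groups tested, and chance gives about 1 in 20. Of these, 5 were the lowest value in KO-1 day 0 replicate 1, the library with the smallest share of counts on the members: Rpl10 (VST 13.01), Rpl13 (13.37), Rpl26 (12.04), Rpl37a (11.32) and Rps27l (10.72). Without this library the median log2 difference over the members at day 0 was -0.14. Rpl24, which had few counts, was highest in KO-2 day 0 replicate 1 (8.584), and Rps27rt was lowest in KO-2 day 2 replicate 1 (8.991).

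The difference between KO and WT changed from day 2 to day 4 in 6 members, by the test of the change itself (limma, adjusted over all genes). The changes were 0.77 in Rpl10l (adjusted p = 0.00226), 0.84 in Rpl39l (adjusted p = 0.00263), 0.64 in Rpl3 (adjusted p = 0.00468), 0.61 in Rpl34 (adjusted p = 0.00712), 0.64 in Rpl11 (adjusted p = 0.0073) and 0.85 in Rps14 (adjusted p = 0.00974). In Rpl10l a positive difference grew. Rpl39l had a difference that did not pass at day 2 and was called higher at day 4. In the other 4 a negative difference shrank. No member passed in this test without WT day 2 replicate 1 or without WT day 4 replicate 1.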

How the results depend on the processing

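Replicate numbers gave no consistent pairing of the libraries. The deviations of libraries with the same number had a mean correlation of -0.0476 over 36 pairs of groups. The correlations ran from -0.61 to 0.64, with 13 of them over 0.1, so the mean alone does not settle the pairing. With the replicate block, the number of members whose difference between KO and WT changed from day 2 to day 4 was 3 in place of 6, the member count at day 2 was 47 in place of 49, and no other count or median moved beyond its limit.

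With KO-1 alone the counts were 3, 15 and 7 at day 0, day 2 and day 4 with medians of -0.39, -0.48 and -0.36, and the changes of the difference gave 2 and 0 members with medians of -0.079 and 0.12. With KO-2 alone the medians were -0.10, -0.73 and 0.037, the last reversed in sign, and the changes gave 52 and 72 members with medians of -0.61 and 0.77. With 9 groups the changes gave 4 and 12 members.

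Quantile normalization gave 23 members at day 2 (median -0.48), 0.34 as the median change from day 2 to day 4, 2 and 7 members along time in WT (-0.38 as the median of the second interval), and 1 and 10 between the clones at day 2 and day 4. Centring gave 1 member for the first change. Limma-voom with the authors' size factors gave 1 member at day 0, higher, beside 6.35% of all genes. It gave 9 higher and 1 lower in WT from day 0 to day 2, beside 9.13% and 9.71%. In KO from day 2 to day 4 it gave 2 lower, beside 4.43%. Between the clones it gave 13 higher in KO-2 at day 4, beside 0.865%. With total counts these were 1 at day 0 and 17 between the clones, and the median change from day 2 to day 4 was 0.54, beside a shift of all genes of 0.16. With thinned counts there was 1 member at day 0 and 1 for the first change, 13 between the clones at day 4 (median 0.49), and a second change of 0.54, beside 0.11 over all genes.

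With depth as a covariate the median at day 2 was -0.73, the changes were -0.45 (1 member) and 0.58, 13 members were called in WT from day 0 to day 2, and the WT median from day 2 to day 4 was -0.67. The length correction gave 1 member for the first change, 15 in WT from day 2 to day 4 and 1 between the clones at day 4.

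An adjusted p under 0.05 with no size threshold gave 12, 81 and 7 members at the 3 days, 10 and 29 for the changes, 46 and 56 along time in WT, 3 and 2 in KO, and 2, 8 and 74 between the clones. An adjusted p under 0.01 with no size threshold gave 1 at day 0, 3 and 13 for the changes, 15 and 44 in WT, 2 and 2 in KO, and 52 between the clones at day 4. A size threshold of 1 gave 3 members at day 2, 0 for the second change, 0 and 2 in WT, and 0 both in KO from day 2 to day 4 and between the clones at day 4. Counts in this section without a share of all genes beside them show only how the calls depend on the setting.

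Leaving out 1 library in turn gave 13 to 65 members at day 2 (median -0.73 to -0.48), a median of -0.29 to -0.14 at day 0, 0 to 3 and 0 to 16 for the changes (medians -0.47 to -0.24 and 0.33 to 0.55), and 3 to 7 and 5 to 26 along time in WT (0.28 to 0.53 and -0.60 to -0.40). It gave 0 to 2 in KO from day 2 to day 4, KO medians of -0.05 to 0.11 and -0.12 to 0.03 for the 2 intervals, 0 to 13 and 0 to 17 members between the clones at day 0 and day 4, and clone medians of 0.13 to 0.40 at day 0 and -0.37 to -0.19 at day 2. The cause of these shifts was not tested.

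Rpl10l at day 2 and day 4, Rpl39l at day 4 and Rps14 at day 2 stayed on their side of the threshold in each of 32 alternatives. A list widened after seeing the data with Rps3a1, Rps3a2, Rps3a3, Rpl22l1 and Rpl7l1 gave 0, 51 and 2 members. With 2 WT libraries per day, 1 library can move a count of calls, and at day 2 the WT libraries were the shallowest. The VST compresses differences of genes with few counts, so that Rpl3l, Rpl24, Rpl36al and Rps10 are weakly measured. Reads removed as duplicates, and reads shared with pseudogenes, could not be recovered.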
